A study of Mus musculus with 5 samples.

Results

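Among 21202 H3K4 peaks on the assembled chromosomes of E18.5 mouse fetal testis, 4359 peaks (20.6%, 95% Wilson interval 20.02 to 21.1) lay inside a protein-coding gene, away from its ends and away from CREB. A peak was taken when its midpoint fell inside a RefSeq protein-coding gene, when the peak did not overlap the 1000 bp on either side of any protein-coding gene end, and when no CREB midpoint of any stage lay within 1000 bp. These 4359 peaks are called intragenic peaks here, and the genes that hold them are called hosts. The peaks were thus chosen by measured values, the positions of the H3K4 and CREB peaks, and neither their place inside genes nor their lack of CREB is a finding. The remaining H3K4 peaks were 13403 at gene ends, 614 inside genes with CREB within 1000 bp, 2580 outside genes without CREB and 246 outside genes with CREB. Intervals given with shares cover counting error only, since peaks of 1 library are not replicates.

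The series used CUT&RUN, which frees the DNA around a protein or mark with a nuclease tethered to its antibody. The labels give dissociated cells of whole male gonads as the material, with no strain, genotype or treatment stated and no sorting of cell types. CREB was profiled at E13.5 (862 peaks), at E16.5 (3528 peaks) and later at E18.5 (2957 peaks), and H3K4 at E18.5 (21211 peaks, including unplaced scaffolds), with 1 library each. An IgG library, whose labels name more than 1 stage, was not analysed here. Without replicates no test between conditions could be made, and the depth is unknown because the files hold positions only. Signal from a few cells of a type and weak signal from many cells cannot be told apart in such mixed samples.

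Methylation of histone H3 at lysine 4 marks active regulatory DNA, with the trimethyl form concentrated at gene starts and the monomethyl form spread over enhancers. The labels do not say which form the antibody recognised. CREB is a transcription factor that acts downstream of cyclic AMP, and its binding element is a palindrome with a CG dinucleotide at its centre. A mark inside a gene can lie at a second start of that gene, at the start of another transcript, or at an enhancer, and a peak list by itself does not separate these.

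Of the intragenic peaks whose host had a listed start, 1359 of 3403 (39.9%, 38.3 to 41.6) lay within 1000 bp of an internal start, meaning a RefSeq transcript start of the host more than 1000 bp from both ends of the gene. The sequences around 8 such starts are shown because they span the range from dense in CG to nearly free of it. Each runs 5′ to 3′ on the gene's strand from 250 bases before the start, is 300 bases long, comes from RefSeq on GRCm38.p6, and has every CG dinucleotide in capitals. Runx1 encodes a transcription factor of blood formation and is known to be read from a distal and a proximal promoter. Its internal start lay 128745 bp into the gene and 197 bp from an intragenic peak, and its window held 35 CG. Prdm1 encodes a repressor needed to specify germ cells, with an internal start 36 bp from a peak and 20 CG. Tdrd7 encodes a Tudor protein of germ granules, with an internal start 11 bp from a peak and 32 CG. Nav2 encodes a cytoskeletal navigator protein, with an internal start 287126 bp into the gene, 21 bp from a peak, and 42 CG.
Runx1 (chr16:92697280-92697579, minus strand): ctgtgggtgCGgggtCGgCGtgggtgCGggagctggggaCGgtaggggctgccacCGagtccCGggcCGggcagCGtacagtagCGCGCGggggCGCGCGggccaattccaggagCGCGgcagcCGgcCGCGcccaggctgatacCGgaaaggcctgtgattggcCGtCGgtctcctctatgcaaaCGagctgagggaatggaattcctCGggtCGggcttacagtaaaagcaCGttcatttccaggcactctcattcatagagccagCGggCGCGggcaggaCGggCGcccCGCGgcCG
Prdm1 (chr10:44458699-44458998, minus strand): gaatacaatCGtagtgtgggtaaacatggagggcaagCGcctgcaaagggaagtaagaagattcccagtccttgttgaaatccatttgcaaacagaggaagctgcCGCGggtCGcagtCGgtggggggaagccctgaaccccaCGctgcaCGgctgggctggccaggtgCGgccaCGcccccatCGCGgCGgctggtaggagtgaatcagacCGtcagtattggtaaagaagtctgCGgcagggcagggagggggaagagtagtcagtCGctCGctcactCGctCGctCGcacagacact
Tdrd7 (chr4:45972581-45972880, plus strand): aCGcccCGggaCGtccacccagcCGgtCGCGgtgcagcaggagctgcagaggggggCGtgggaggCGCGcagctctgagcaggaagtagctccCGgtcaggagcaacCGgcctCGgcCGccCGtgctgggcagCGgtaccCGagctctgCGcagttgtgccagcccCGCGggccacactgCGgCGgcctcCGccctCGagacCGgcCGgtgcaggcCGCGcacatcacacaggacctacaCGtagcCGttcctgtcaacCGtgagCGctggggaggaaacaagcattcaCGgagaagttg
Nav2 (chr7:49245939-49246238, plus strand): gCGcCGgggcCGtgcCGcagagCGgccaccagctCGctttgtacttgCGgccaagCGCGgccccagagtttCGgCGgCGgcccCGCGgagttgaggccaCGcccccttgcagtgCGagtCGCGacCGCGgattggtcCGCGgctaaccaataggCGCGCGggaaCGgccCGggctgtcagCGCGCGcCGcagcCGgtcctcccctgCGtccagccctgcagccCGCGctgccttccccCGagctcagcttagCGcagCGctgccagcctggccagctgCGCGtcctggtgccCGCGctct

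Egfl7, which encodes a protein secreted by endothelial cells, had internal starts of both kinds. The one with an intragenic peak, at 125 bp, held 31 CG, and the one whose nearest H3K4 peak was 2896 bp away held 8 CG.
Egfl7 with a peak (chr2:26586386-26586685, plus strand): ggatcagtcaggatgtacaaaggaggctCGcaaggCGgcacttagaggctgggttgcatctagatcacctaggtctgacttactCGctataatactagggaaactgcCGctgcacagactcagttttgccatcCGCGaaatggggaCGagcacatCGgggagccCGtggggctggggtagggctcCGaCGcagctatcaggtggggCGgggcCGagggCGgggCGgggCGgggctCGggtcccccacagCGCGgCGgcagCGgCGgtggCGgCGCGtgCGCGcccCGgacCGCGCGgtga
Egfl7 without a peak (chr2:26583615-26583914, plus strand): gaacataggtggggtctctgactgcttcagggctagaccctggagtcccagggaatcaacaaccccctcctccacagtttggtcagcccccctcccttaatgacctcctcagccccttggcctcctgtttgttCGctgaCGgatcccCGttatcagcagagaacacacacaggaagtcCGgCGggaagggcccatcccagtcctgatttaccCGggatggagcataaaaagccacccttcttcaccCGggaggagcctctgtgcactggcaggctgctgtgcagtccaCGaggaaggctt

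Cyp11a1 and Piwil4 lay at the other extreme. Cyp11a1 encodes the enzyme that starts steroid synthesis by cleaving the cholesterol side chain. Its internal start lay 252 bp from a peak with 1 CG in the window. Piwil4 encodes a Piwi protein of fetal male germ cells. Its internal start lay 362 bp from a peak with 0 CG.
Cyp11a1 (chr9:58014702-58015001, plus strand): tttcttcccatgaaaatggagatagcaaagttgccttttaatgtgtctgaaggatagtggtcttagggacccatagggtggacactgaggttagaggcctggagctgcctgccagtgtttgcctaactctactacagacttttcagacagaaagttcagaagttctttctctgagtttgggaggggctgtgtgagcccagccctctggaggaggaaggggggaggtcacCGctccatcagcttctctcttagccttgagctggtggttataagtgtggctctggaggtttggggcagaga
Piwil4 (chr9:14718338-14718637, minus strand): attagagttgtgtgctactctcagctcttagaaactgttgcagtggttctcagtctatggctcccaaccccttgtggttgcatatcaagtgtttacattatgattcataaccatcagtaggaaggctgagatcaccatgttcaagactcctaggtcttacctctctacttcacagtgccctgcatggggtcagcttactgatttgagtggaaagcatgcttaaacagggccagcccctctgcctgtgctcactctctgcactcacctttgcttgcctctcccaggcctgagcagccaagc

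Over all 1313 internal start windows with an intragenic peak within 1000 bp, the CpG ratio (observed CG over that given by the C and G content) had a median of 0.7, with quartiles of 0.499 and 0.881. The 2179 internal starts without any H3K4 peak within 1000 bp had a median of 0.244. The 9684 starts near a gene end with H3K4 had a median of 0.787, and the 7529 without it 0.208. A ratio of at least 0.6 was found in 63.1% of internal start windows with an intragenic peak and in 11% of those without H3K4. Internal starts with a peak therefore lay closer to marked gene ends than to unmarked internal starts in this measure, as do the Runx1 and Nav2 windows above, while Cyp11a1 and Piwil4 lay in the lower tail. For the 423 internal starts with both H3K4 and CREB within 1000 bp the median was 0.784; 35 windows belong to both this class and that of intragenic peaks.

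**Figure D1:**
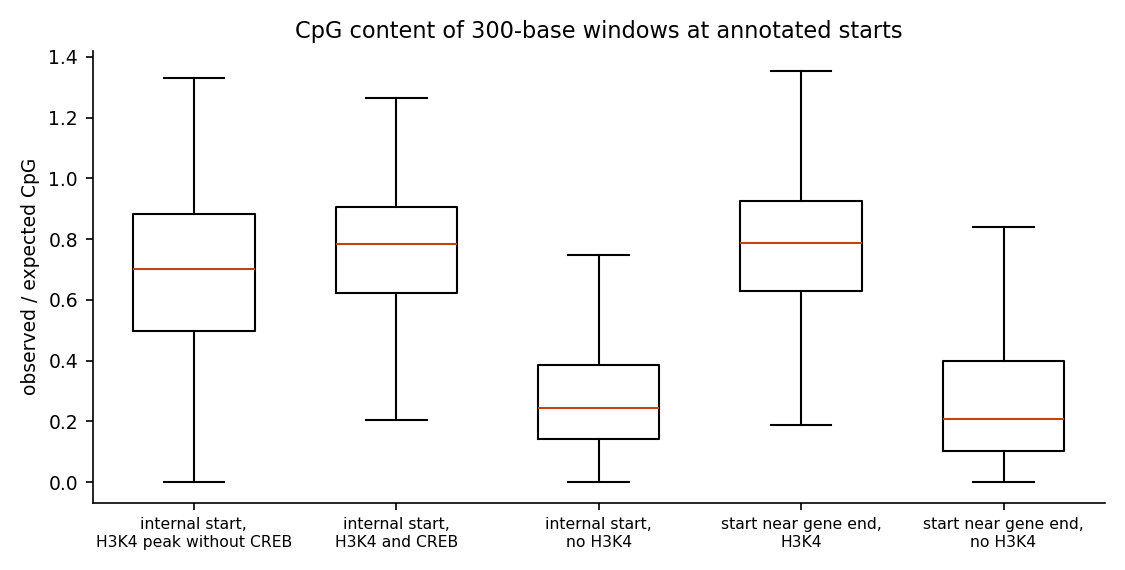
CpG ratio of 300-base start windows (y axis, observed over expected CG) by class of start (x axis). Boxes show the median and quartiles, and whiskers reach the farthest window within 1.5 box heights. Internal starts with an intragenic peak (median 0.7) sit near starts at gene ends with H3K4 (0.787) and above internal starts without H3K4 (0.244).

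The full CREB element, TGACGTCA, was present in 1.14% (0.694 to 1.88) of internal start windows with an intragenic peak, against 2.23% of all 21263 start windows. It was present in 6.86% (4.82 to 9.67) of internal starts with H3K4 and CREB and in 0.918% (0.595 to 1.41) of internal starts without H3K4. TGACG or its complement CGTCA, which the full element contains, was present in 21.2% of windows with an intragenic peak, 48.9% with H3K4 and CREB, 14.4% without H3K4 and 23.6% of all windows. The rule removed peaks near CREB, so a lower share in the first class is not independent of it. TATAAA or TTTATA, the core of the TATA box, was present in 5.1% of windows with an intragenic peak, 15.4% of internal starts without H3K4 and 12.6% of all. GGGCGG or CCGCCC, the GC box, was present in 62.9%, 19.7% and 46.2%. CCAAT or ATTGG was present in 29.8% of windows with an intragenic peak, below the 36.9% of internal starts without H3K4 and the 38.2% of all windows. These are matches of letters on both strands in the window and nothing more.

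Of 4050 internal starts in 3040 genes, 1313 (32.4%, 31 to 33.9) had an intragenic peak within 1000 bp, and 46.2% had an H3K4 peak of any kind. The peak midpoint lay downstream of its internal start in 971 of 1359 cases (71.4%). Over all 1359 peaks the median position was 193 bp downstream, with upstream positions counted as negative. Of the other intragenic peaks with a listed host start, 212 (6.23%) lay at the end of a noncoding gene, 375 (11%) belonged to a row of H3K4 peaks reaching a gene end with steps of at most 2000 bp, and 1457 (42.8%, 41.2 to 44.5) had none of these features. Among the last, 759 (22.3% of those with a listed start) were also more than 10000 bp from both host ends. For these peaks the annotation used here lists no internal start of the host within 1000 bp, although some hosts have one farther away.

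Within their hosts the intragenic peaks lay towards the 5′ side. The distance to the nearest host end had a median of 5560 bp, with quartiles of 1755 and 24959.5 bp, and 48.5% of peaks (47 to 49.9) lay within 5000 bp of an end. Strand was known for the hosts of 3397 peaks. Of these, 26.7% lay within 2000 bp of the gene start and 2.12% within 2000 bp of the far end. The first 10% of gene length held 33.2% of the peaks and the last 10% held 4.3%. The median position was 24.7% of the gene length from the start, or 8325 bp.

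**Figure D2:**
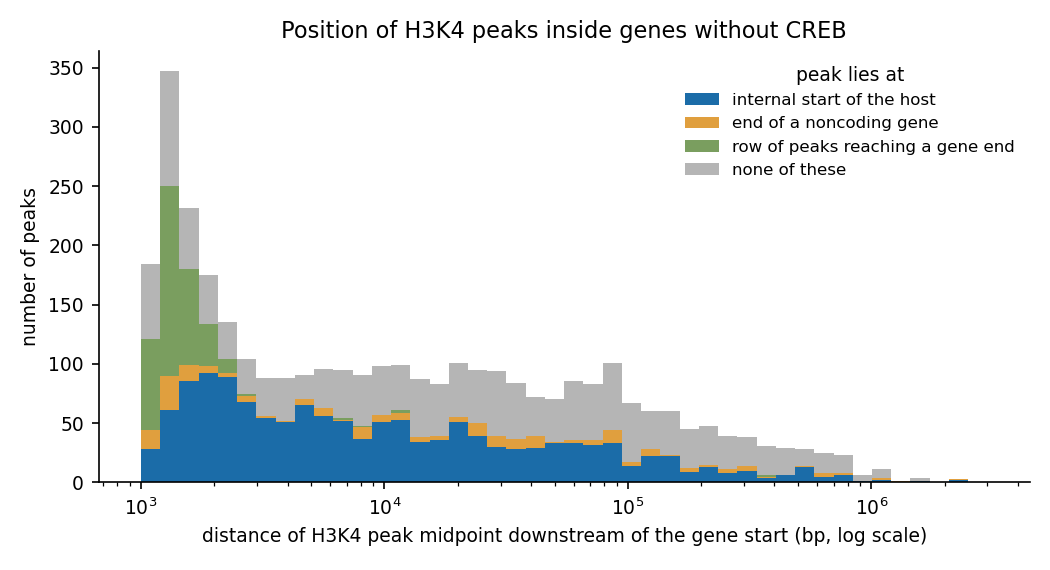
Number of intragenic peaks by distance downstream of the gene start (bp, log scale) for the 3397 peaks whose host strand is known, stacked by what lies at the peak. The highest bars stand just past the 1000 bp limit, where rows of peaks reaching a gene end (green) are found, and peaks at internal starts (blue) spread over all distances.

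At the limits of the rule, peaks in Pm20d2, Smarca5 and Hoxb4 were the closest kept, each with its midpoint 1106 bp from a gene end. Peaks in Mdga1 (1105 bp), H1f0 (1104 bp) and Col15a1 (1104 bp) were the closest left out. For CREB, peaks in Morf4l2 (1001 bp), Zbtb11 (1007 bp) and Sh2b3 (1013 bp) were kept, and those in Ralgapa1 (996 bp), Ptk7 (994 bp) and Lmo4 (994 bp) were left out. Smarca5, a chromatin remodelling ATPase, was near both limits, with CREB 1260 bp away. Most intragenic peaks were far from CREB, at a median of 133275 bp, and 9.5% had a CREB midpoint within 10000 bp.

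The hosts numbered 3203 of 21887 protein-coding genes (14.6%), a share fixed by the rule and given as background. They were long, with a median length of 56.1 kb against 17.2 kb for all protein-coding genes. The share of genes that were hosts was 3.48% under 10 kb, 11.7% from 10 to 30 kb, 22.4% from 30 to 100 kb, 39.6% from 100 to 300 kb and 52.8% above. Per length of gene the order was the opposite, from 9.43 intragenic peaks per Mb in genes under 10 kb to 1.93 per Mb in genes over 300 kb. Short genes are limited by the rule, since the 1000 bp at both ends are left out.

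**Figure D3:**
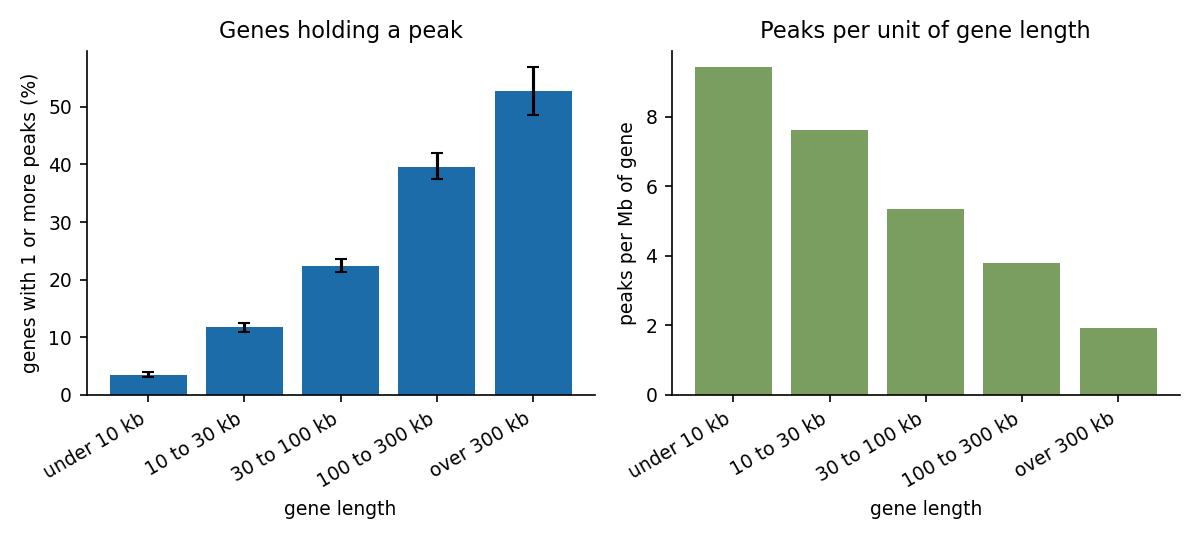
Share of protein-coding genes that hold an intragenic peak, and intragenic peaks per Mb of gene, by gene length class, with 95% Wilson intervals on the share. The share of hosts rises from 3.48% to 52.8% with length while peaks per Mb fall from 9.43 to 1.93.

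An H3K4 peak at a gene end was found in 49.2% of hosts (1576, 47.5 to 50.9) and in 52.7% of all protein-coding genes. Within length classes the hosts were lower from 10 kb on: 44.6% against 59% at 10 to 30 kb, 50.3% against 64.2% at 30 to 100 kb, 53% against 65.4% at 100 to 300 kb, and 56.1% against 62.7% above. Under 10 kb hosts had 39.9% and all genes 36.5%. Hosts were chosen by the distance of H3K4 peaks from gene ends, so this share is not independent of the rule. Its part in the difference was not tested. With gene end windows of 500 and 2500 bp the share of hosts was 41.3% and 59%, and no share of all genes was computed there. An intragenic peak at an internal start was then counted among hosts with a listed start only. Those without an H3K4 peak at an end had such a peak in 54.5% of cases (687 of 1261, 51.7 to 57.2). Those with an H3K4 peak at an end had it in 33.2% (400 of 1206, 30.6 to 35.9). Maml3, Gse1, Nfia and Pde4d are among the hosts with no H3K4 peak at either end, and Chd9, Bcor and Nav2 had one at the start.

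CREB at a gene end was less frequent in hosts. Of the 1576 hosts with H3K4 at an end, 314 (19.9%, 18 to 22) had CREB at an end at some stage, against 3157 of 9958 genes (31.7%, 30.8 to 32.6) with H3K4 at an end and no intragenic peak. The order held in each length class up to 300 kb, with 23.6% against 35.1% under 10 kb and 14.2% against 19.5% at 100 to 300 kb. It was the opposite above 300 kb, with 13.3% against 9.24%. The rule also removed peaks close to CREB at a gene start, and its part in this difference was not tested. By stage, the share of hosts with such a CREB peak was 2.78% for the E13.5 list, 11.1% for the E16.5 list and 9.09% for the E18.5 list, from lists of unequal length and peak width. Tex14, a germ cell gene, and Pcf11, which encodes a factor that ends transcription, had CREB at an end at all 3 stages.

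Several peaks often shared a host. 861 hosts held 2 or more intragenic peaks, which is 26.9% of hosts and 3.93% of protein-coding genes, 237 held 3 or more and 41 held 5 or more. The hosts with 5 or more had a median length of 279.3 kb. Of the gaps between neighbouring intragenic peaks of a host, 582 of 1225 (47.5%, 44.7 to 50.3) were at most 2000 bp, 22 (1.8%) were longer than that but within 5000 bp, and 264 (21.6%) exceeded 50000 bp. Short gaps were thus frequent, and few gaps lay just above 2000 bp. Runs of peaks with steps of at most 2000 bp numbered 520 pairs and 31 triples, and none was longer. At internal starts 38.2% of the peaks had another within 2000 bp, against 19.9% of peaks with none of the features above.

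Maml3, which encodes a coactivator of Notch signalling, held 10 intragenic peaks over 418 kb, more than any other gene. They lay from 35.4 to 404.1 kb from the gene start, and no internal start is listed for the gene. Chd9, a chromatin remodeller, held 9 peaks between 42.0 and 127.2 kb. Nfia, a transcription factor of the nuclear factor I family, held 9 peaks, 6 of which lay between 168.0 and 201.1 kb. Gse1 also held 9 peaks, in 2 triples near internal starts, a pair near the gene start and 1 peak apart. In Bcor, a corepressor of the Polycomb system, 7 peaks lay between 2.1 and 83.1 kb. Nav2 held 7 peaks in 2 pairs and a triple, of which the first pair lay at the internal start printed above. Pde4d, a phosphodiesterase that breaks down cyclic AMP, held 7 peaks over 1301.8 kb, all at least 575.4 kb from the gene start. Msi1, an RNA-binding protein, Ripor2 and Tmcc3 held 6 each. They are 3 of 9 hosts with 6 peaks, named because they held the most per 10 kb among these.

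**Figure D4:**
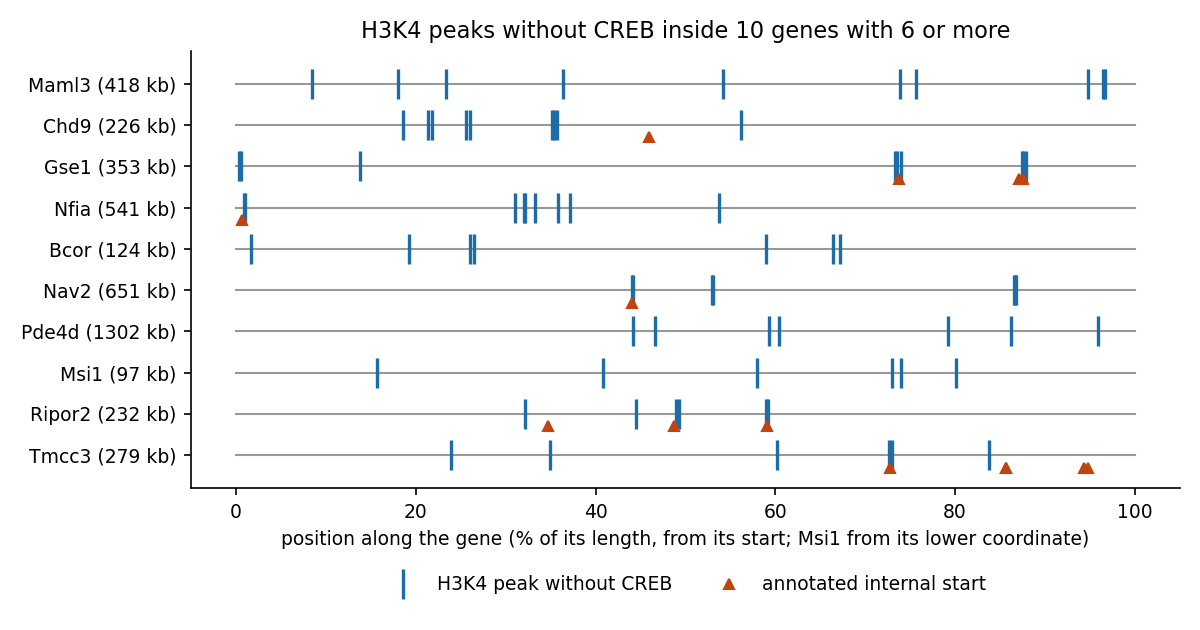
Positions of intragenic peaks in 10 hosts, the 7 with 7 or more peaks and the 3 densest of 9 tied at 6, as a percentage of gene length from the gene start (for Msi1, whose strand was not listed, from its lower coordinate). Bars are peaks and triangles are internal starts, and tight groups with long empty stretches between them are seen in Nav2 and Gse1.

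The densest hosts were short. 1810010H24Rik held 3 peaks in 7.17 kb, or 4.18 per 10 kb, and its run of 2601 bp was the longest, with 1 peak 140 bp from an internal start. Htra4, a serine protease, held 2.14 peaks per 10 kb, Gipc1 1.95, St6galnac6, a sialyltransferase, 1.9, and Pth1r, the receptor of parathyroid hormone, 1.6. Of the 4 Pth1r peaks, 3 lay 90, 460 and 286 bp from internal starts. Foxo6, a forkhead factor, Adcy6, an adenylyl cyclase that makes cyclic AMP, and Lmtk3 followed at 1.49, 1.48 and 1.43. The next longest runs were in Gse1 (2286 bp and 1886 bp), Kmt2d (2199 bp), which encodes a methyltransferase of H3K4 itself, and Rin2 (2047 bp).

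No source used here explains the order of the H3K4 list, so places in it are given as a description only. The first intragenic peak, at place 23, lay in Dnajc18. Next came Zfp235 at 46, Angel2 at 48, Cdk12 at 62, Pus3 at 71, Rtn4 at 104, Pcf11 at 107, Mad2l2 at 133, Trim11 at 137 and Btbd10 at 143. Of these, the peaks in Angel2 (86 bp), Mad2l2 (161 bp) and Btbd10 (49 bp) lay at internal starts. Mad2l2 encodes a DNA repair and checkpoint protein that also acts in primordial germ cells. The median place of intragenic peaks was 64% of the way down the list, of gene-end peaks 40.7%, of peaks inside genes with CREB 38%, and of peaks outside genes without CREB 83.9%. Within the intragenic peaks it was 51% at internal starts and 80.3% for those with none of the features above.

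The peaks farthest from a host end lay in Dlg2 (786323 bp), Rbfox1 (721443 bp), Lsamp (648554 bp) and Tenm3 (617988 and 617339 bp), all known as genes of neurons. These genes are 1973.1, 1527.7, 2197.4 and 1297.2 kb long. Only very long genes can hold a peak this far from both ends, so the ranking selects genes by length. The Lsamp peak lay 299 bp from an internal start. The Tenm3 pair lay 232 and 881 bp from the end of a long noncoding RNA gene.

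Genes of testis cell types were examined in 10 lists, each count read beside the number that the shares of all genes in the same length classes add up to. For fetal Leydig cells, which make androgens, 3 of 24 genes were hosts against 3.66 by length. Gramd1b, which encodes a cholesterol transporter, held 5 peaks, from 2351 to 118798 bp from its nearest end. Prlr, the prolactin receptor, held 1 peak 1164 bp from its start, and Cyp11a1 the peak at the internal start printed above, whose nearest CREB midpoint was 6006 bp away. For Sertoli cells, which nurse the germ cells, 8 of 30 genes were hosts against 3.97 by length, each with 1 peak: Fgfr2, Fgf9, Erbb4, Gata4, Clu, Dhh, Mro and Dmrt1. In Fgf9, a growth factor of testis determination, the peak lay 1351 bp from the start and 664 bp from an internal start. In Fgfr2, a receptor for such factors, it lay 1567 bp from the start, in Dmrt1 1372 bp and in Clu 1295 bp from an end. Gata4 (15900 bp) and Mro (11885 bp) had deeper peaks. No H3K4 peak stood at an end of 6 of these 8 hosts.

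For fetal germ cells 6 of 35 genes were hosts against 5.78 by length. Tex14 held 3 peaks, 345, 22 and 402 bp from ends of the small RNA genes Rnu3b4 and Rnu3b2 inside it. Those RNA genes have near-identical copies, so the reads behind these 3 peaks are uncertain. Prdm1 held 2 peaks and Tdrd7 and Piwil4 1 each, all at the internal starts printed above. Gfra1, the GDNF receptor of germline stem cells, and Tdrd5 held 1 peak 1258 and 1152 bp from the start.

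For interstitial progenitors, from which Leydig cells arise, 10 of 29 genes were hosts against 4.05 by length. Igf1 (1483 bp), Gli2 (2186 bp) and Hhip (1169 bp), the last 2 being parts of Hedgehog signalling, held 1 each near the start. Bmp4 (2778 bp), Tbx3 (1121 bp) and Pdgfrb (1136 bp) likewise held 1 near an end, and Notch2 and Nes were also hosts. No peak in these 10 genes had a listed internal start within 1000 bp.

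For peritubular myoid and smooth muscle 4 of 14 genes were hosts against 2.38 by length. Cald1 held 2 peaks, 1 of them 111.2 kb into the gene and 299 bp from an internal start, Ldb3 held 2, and Tpm1 and Flna, which like Cald1 serve the actin skeleton, held 1. For endothelial cells it was 7 of 24 against 4.8. Ets1, a transcription factor, held 4 peaks, Esam, a junction protein, 2, and Fli1, Egfl7, Tal1, Tek and Plvap 1 each. For macrophages and other immune cells it was 4 of 19 against 3, with 3 peaks in Runx1 and 1 each in Ikzf1, Ptprc and Spi1.

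For epithelium of the coelom or mesonephric duct 3 of 12 genes were hosts against 1.44, among them Gata3 and Pax2. Among genes of tissues outside the gonad, 4 of 20 neuron genes (Syp, Neurod1, Camk2a and Nefm) were hosts against 4.16, and 1 of 20 liver and skeletal muscle genes (Ryr1) against 2.24. As a check of the tissue, an H3K4 peak stood at an end of 16 of 24 Leydig, 18 of 30 Sertoli, 10 of 14 myoid and smooth muscle and 12 of 24 endothelial genes. It stood at an end of 10 of 35 germ cell, 10 of 29 interstitial progenitor, 6 of 19 immune and 3 of 12 epithelial genes. Among genes of tissues outside the gonad it was 7 of 20 neuron genes and 5 of 20 liver and skeletal muscle genes, and over all protein-coding genes 52.7%. The mark at gene ends thus did not set all gonad lists apart from the others. The counts for interstitial progenitors and Sertoli cells rest largely on peaks just past the 1000 bp limit: with 2500 bp they fell to 2 and 3 genes. Hosts among all protein-coding genes also fell, from 3203 to 1903. The numbers given by length were not computed at that limit.

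**Figure D5:**
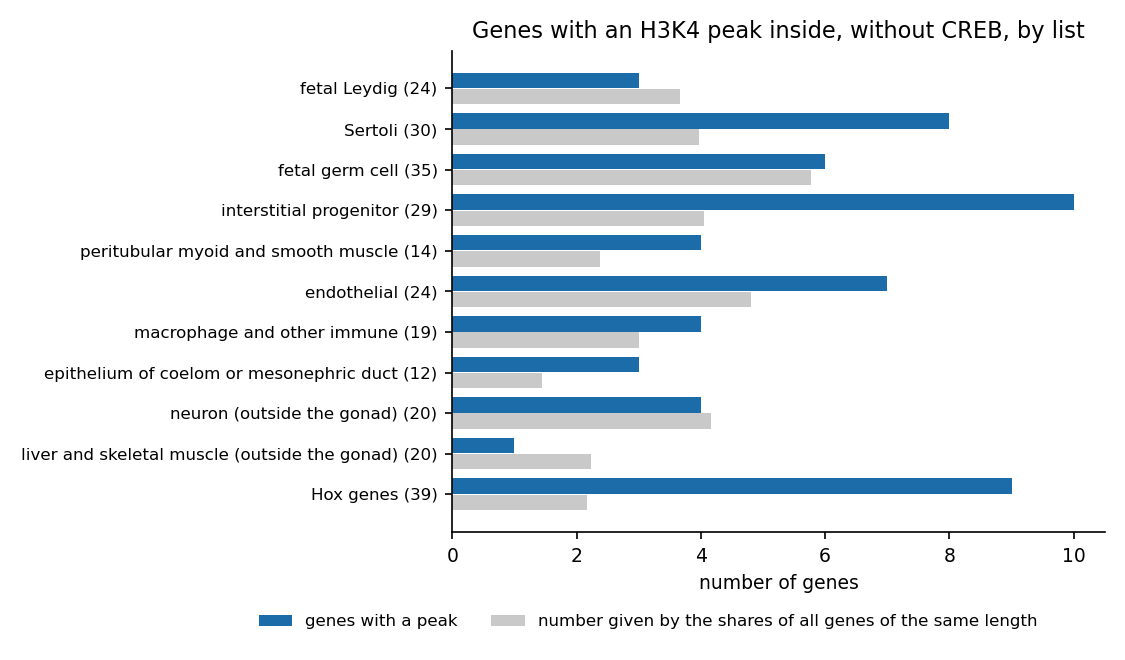
Number of genes with an intragenic peak in each list (blue; list size in brackets) beside the number that the host shares of all genes of the same length classes give (grey). Interstitial progenitor (10 against 4.05), Sertoli (8 against 3.97) and Hox (9 against 2.17) genes have the widest gaps.

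Hox genes, which pattern the body axis, gave 9 hosts of 39 against 2.17 by length, with 14 peaks counted once per gene. Hoxb3 held 4 peaks, 1 of which also lies in Hoxb4, 1106 bp from its start. Hoxd3 held 2 peaks, 1520 and 21003 bp from its start, and Hoxc9 held 2. Hoxc4 held 1 peak 348 bp from an internal start, and Hoxa3, Hoxb6 and Hoxb7 held 1 each.

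Intragenic peaks were set beside the 2 most similar sets. A listed start of any gene was within 1000 bp of 41% of intragenic peaks, 68.5% of peaks inside genes with CREB and 14.2% of peaks outside genes without CREB. Another H3K4 peak lay within 2000 bp of 41%, 56.5% and 16.3%. In both measures the intragenic peaks lay between the other sets. By the rule, however, peaks outside genes cannot lie within 1000 bp of a start of a protein-coding gene. Their 14.2% thus comes from starts of other genes only, and their place in the first measure is not independent of the rule. A noncoding gene end was within 1000 bp of 10.7%, 11.4% and 27.2%, and 15.1%, 13.8% and 0.698% belonged to a row of H3K4 peaks reaching a gene end. In these measures they lay close to the peaks inside genes with CREB. Of the 467 intragenic peaks at a noncoding gene end, 389 were at long noncoding RNA genes, 27 at miRNA genes and 25 at pseudogenes.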

How the data were processed

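CUT&RUN was done on dissociated male gonads, and 4 of 5 libraries, 1 per antibody and stage, were used. The submitters' processing notes name the build mm10 and the tools MACS2, Bowtie2 2.5.2 and Trim Galore 0.6.10. For MACS2 the version, the settings and any use of IgG were not given in the sources used here. The deposited peak lists hold only chromosome, start and end, so no score, count or depth is known. H3K4 peaks have a typical width of 210 bp, so width says nothing of a single peak.

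Genes and start windows came from RefSeq for GRCm38.p6, whose coordinates equal those of mm10. Strand came from the start windows, which matched 3403 of the 4359 peaks' hosts (81.1% outside chromosome 18, on which no start window was used). Exons, introns and UTRs are not stated. Distances run from peak midpoints, and coordinates are 1-based. CpG ratio is the CG count times window length over the product of C and G counts. Intervals are 95% Wilson intervals.

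The peaks and gene lists were chosen with earlier results of these data known. Named genes are the 10 hosts with the most peaks (ties by peaks per 10 kb), the 8 densest with 3 or more peaks, the 5 longest runs, the first 10 in list order, the 5 farthest peaks, 3 peaks on either side of each limit, up to 8 hosts per cell type list, and Hox hosts. Some of the genes this rule takes are not reported here. Ties of runs were ordered by span, a rule added after seeing the data. No test was made. The script recovered 200 of 200 planted peaks and took 0 of 600 others on simulated lists. Alternatives changed the gene end window, the CREB distance, the gene set, the part of the list and the distance limits. Python 3.11.15, numpy 2.4.6, pandas 2.3.3 and matplotlib 3.10.9 were used.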

Additional observations from a re-analysis of the deposited data

How the results depend on the processing

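Of 109 values under an alternative, 66 stayed within their limit (the Wilson interval for shares, 1.5 times for counts) and 43 did not. Alternatives for the internal start share and for the CpG ratio within 200 bp of a start were added after seeing the data. With a gene end window of 500 bp there were 6967 peaks in 5386 hosts, of which 22.9% held 2 or more. Then 22.9% of peaks had a neighbour within 2000 bp, 67.6% lay within 5000 bp of an end, 41.3% of hosts had H3K4 at an end and 26.9% of peaks lay at an internal start. Hosts were 9 Leydig, 14 Sertoli, 12 endothelial and 2 liver and skeletal muscle genes. With 2500 bp there were 2732 peaks in 1903 hosts, and these shares were 30.5%, 29%, 18%, 59% and 44.2%. Hosts were then 3 Sertoli, 2 interstitial, 2 immune, 1 epithelial and 2 neuron genes. Without CREB within 2500 bp, 45.8% lay within 5000 bp of an end. With ends of all annotated genes, 25.2% of hosts held 2 or more peaks and 24% of peaks had a neighbour. The first part of the list, up to its middle place, gave 1640 peaks in 1423 hosts, with shares in the same order of 15.5%, 22.8%, 67.1%, 32.5% and 50.7%. Hosts were then 1 Sertoli, 0 germ cell, 2 endothelial, 1 immune, 0 epithelial, 0 neuron and 0 liver and skeletal muscle genes. A neighbour within 1000 bp was found for 21% of peaks, an end within 10000 bp for 60.1%, and an internal start within 500 bp for 28.4%. These settings change which peaks or distances count by construction. For the gene lists, the numbers given by length were not computed under any alternative, so their counts here have no background beside them. No paired analysis was possible because each antibody and stage has 1 library. Depth, peak strength and reproducibility could not be assessed from positions alone.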

Other observations

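Gene families grouped by the start of their symbol, chosen after the data had been examined, differed in how many members were hosts. Beside each count stands the number given by the shares of all genes of the same length classes. Pde genes, mostly phosphodiesterases, gave 14 of 26 against 8.28, with 7 peaks in Pde4d and 3 each in Pde4a, Pde4b and Pde7b. Kdm and Kmt genes, lysine demethylases and methyltransferases, gave 12 of 26 against 5.89, with 3 peaks in Kmt2d. Kdm2b, Kdm4c, Kdm6a, Kmt2c and Kmt5a held 2 peaks each. Tbx genes gave 5 of 13 against 1.68: Tbx1, Tbx3, Tbx15, Tbx18 and Tbx22. Sox genes gave 4 of 19 against 2.03, namely Sox5, Sox30, Sox13 and Sox6. Arhg genes gave 32 of 62 against 17.1. Fox genes gave 9 of 44 against 4.99, Adamts genes 8 of 19 against 5.6 and Rab genes 13 of 69 against 11.1. Zfp genes gave 65 of 397 against 55.8 and collagen genes 13 of 44 against 13.8. Slc transporters gave 50 of 375 against 65.7, Krt keratins 1 of 53 against 2.86, Vmn receptors 3 of 355 against 26.4 and Olfr receptors 0 of 1110 against 40.9. The median length was 0.963 kb for Vmn genes and 0.95 kb for Olfr genes. Genes this short cannot be hosts, since the rule leaves out the 1000 bp at both ends. For Vmn and Olfr genes the numbers given by length are therefore no usable background. Of Olfr genes 0.27% had an H3K4 peak at an end.

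On chromosome 18, 163 of 621 H3K4 peaks (26.2%) were intragenic peaks without CREB, and on the other chromosomes with more than 5 H3K4 peaks the share ran from 18.1% to 22.7%. This share counts peaks, whatever the number of genes that hold them. The number of hosts is another matter: protocadherin genes overlap each other there, and 2 peaks lay in 17 and 20 genes at once. Without these 2 peaks the number of hosts was 3172.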
